A study of Mus musculus with 30 samples.

Results

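The 10 genes described here are subunits of phosphatidylinositol 3-kinase (PI3K) and the insulin receptor substrates that recruit it: Pik3r1, Pik3r2, Pik3r3, Pik3ca, Pik3cb, Pik3cd, Pik3c3, Pik3r4, Irs1 and Irs2. They were taken by name from a table of 57186 gene identifiers, and all 10 matched 1 identifier each. The set was chosen on earlier results of the same libraries, in which members had been seen to move, so the members' levels and fold changes are given as a description. Pik3r2, which encodes the regulatory subunit p85-beta, showed the steepest loss: its level, in CPM (counts scaled to a common library total), was 5.10-fold lower after 5 h of cycloheximide in NIH/3T3 and 3.18-fold lower after 2 h in CGR8. Pik3r3 went up in NIH/3T3 at every time, and Pik3r1 and Irs1 about doubled there by 48 h. In CGR8 Irs1 was close to undetected, and the most abundant members per length, beside Pik3r2, were the class III subunits Pik3c3 and Pik3r4.

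As background, class IA PI3K is a dimer of a catalytic subunit (p110) and a regulatory subunit (p85 or p55). The regulatory subunit stabilises p110, restrains it at rest, and carries it to phosphorylated tyrosines on activated receptors and on their docking proteins. IRS1 and IRS2 are such docking proteins for the insulin and IGF1 receptors. The lipid that PI3K makes, PIP3, recruits AKT, which acts on mTOR, GSK3 and the FOXO transcription factors. Class III PI3K, formed by VPS34 (Pik3c3) and VPS15 (Pik3r4), makes a different lipid and serves endosomes and autophagy.

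Both lines were grown with cycloheximide, a drug that blocks translation elongation, at 0.1 µg/mL for 0, 1, 2, 5 or 48 h. NIH/3T3 is a mouse fibroblast line, kept in DMEM with 10% fetal bovine serum. CGR8 is a mouse embryonic stem cell line, kept in N2B27 medium with 2i and LIF. All groups of both lines, the 0 h controls included, carry the same ROSA26 SLT knock-in, and the labels list the drug for the 0 h samples too. Each line and time had 3 replicates, A, B and C, which gives 30 poly(A) RNA libraries in 10 groups. The labels do not say whether replicates were separate cultures, so every standard error and p-value measures only the spread between these samples, which may be technical.

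Libraries held 18216993 to 30503109 counts. The labelled cell types were set against their markers: 4 stem cell markers summed to at most 0.419 CPM in any NIH/3T3 library and to at least 3027 CPM in any CGR8 library, and 6 fibroblast markers summed to at least 4060 CPM in NIH/3T3 and at most 5.07 CPM in CGR8. Of the fibroblast markers, Thy1 (at most 0.0914 CPM) and Postn (at most 0.993 CPM) were near 0 in NIH/3T3, and Thy1 was higher in CGR8 (1.48 to 4.51 CPM). Summed differentiation markers spanned 12.0 to 20.9 CPM in NIH/3T3, nearly all of it Gata4, and 9.75 to 13.8 CPM in CGR8. CPM are relative to each library's total, and in bulk RNA fewer cells of a kind and less RNA per cell cannot be told apart. Transcript length moved with time across all genes. In genes whose longest transcript has 5 kb or more, a class that holds 6 of the 10 members, the median log2 fold change against 0 h was -0.27, -0.20 and 0.30 at 2, 5 and 48 h in NIH/3T3 and -0.30, -0.50 and 0.11 in CGR8. In genes of 2 to 5 kb, which hold Pik3r2, Pik3cd, Pik3c3 and Pik3r4, it stayed between -0.08 and -0.01 at those times. Single libraries also leaned this way when each was set against the mean of the other replicates of its group. The values within a group are therefore linked, since a library that departs moves those of its fellow replicates the opposite way. In NIH/3T3 1 h replicate C the median deviation of long genes (5 kb or more) lay 0.86 below that of short genes (under 2 kb) on the log2 scale (a difference of -0.86), against 0.32 and 0.50 in replicates A and B; in CGR8 5 h the values were -0.64, 0.04 and 0.60, and in CGR8 2 h replicate B it was 0.59. The part of length in the members' values was not tested.

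A gene was called higher or lower where edgeR's quasi-likelihood test gave a Benjamini-Hochberg adjusted p under 0.05 over all genes tested. In NIH/3T3, 1 member was called higher and 1 lower at 1 h, where 0.653% and 0.0789% of all 13941 genes were. At 2 h, 2 members were higher and 4 lower, against 16.1% and 18.9% of all genes. The counts were 2 higher and 5 lower at 5 h, against 24.0% and 27.1%, and 5 higher and 3 lower at 48 h, against 26.7% and 25.6%. Between 5 and 48 h, 7 members were higher and 1 lower, against 34.1% and 31.4%. In CGR8, where 15933 genes were tested, 1 member was called at 1 h, and it was lower; 0.144% of all genes were higher and 0.126% lower. At 2 h, 3 members were lower, against 8.97% of genes higher and 11.0% lower. At 5 h, 1 member was higher and 7 lower, against 24.9% and 27.2%, and at 48 h 1 was higher and 2 lower, against 12.2% and 15.6%. From 5 to 48 h in CGR8, 7 were higher and 2 lower, against 28.9% and 28.6%. Since the members were chosen on these contrasts, nothing is read from their counts. Without NIH/3T3 1 h replicate C, the 1 h counts became 4 higher and 1 lower, and without replicate A or C at 0 h or A or B at 1 h a single member was called. At CGR8 2 h, 5 members were lower without replicate B at 2 h, and 1 was called without replicate A at 0 h or without replicate C at 2 h.

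**Figure D1:**
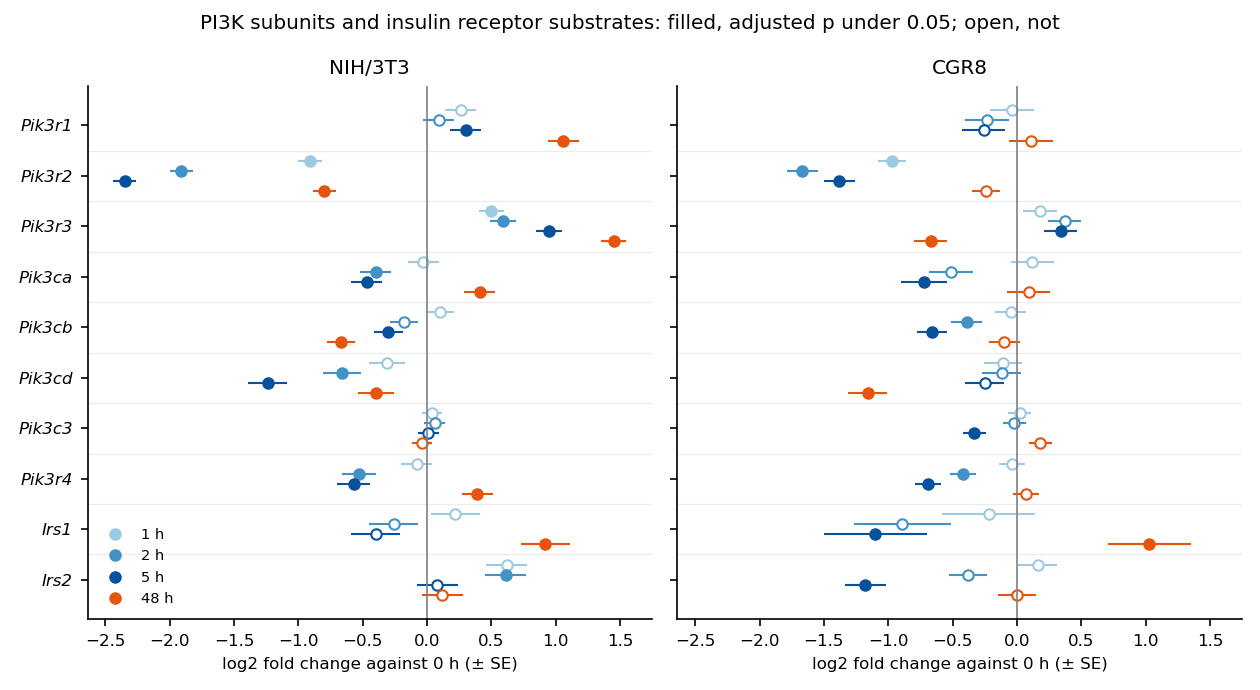
The log2 fold change of each of the 10 genes against 0 h (x axis, with its standard error as a bar) at 1, 2, 5 and 48 h, in NIH/3T3 on the left and CGR8 on the right; filled points passed an adjusted p under 0.05. Pik3r2 lies furthest to the left in NIH/3T3, at -2.35 at 5 h, and Pik3r3 lies to the right there at all 4 times but at -0.67 in CGR8 at 48 h.

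Among the regulatory subunits, Pik3r2 (p85-beta) was lowered within the 1st hour in both lines. In NIH/3T3 its 3 libraries at 0 h held 95.2, 84.5 and 102 CPM, those at 1 h 51.1, 48.2 and 47.3 CPM, and those at 2 h 26.6, 22.3 and 24.2 CPM. At 5 h they held 18.2, 18.2 and 17.5 CPM, and at 48 h 56.9, 51.4 and 56.3 CPM. No library of a treated group overlapped the 0 h libraries, and the 48 h libraries lay between those of 0 h and 1 h. The log2 fold changes against 0 h were -0.91, -1.91, -2.35 and -0.80 (SE 0.09 each, n = 3 per group), and from 5 to 48 h the level rose by 1.55 on the log2 scale (SE 0.09), a 2.92-fold difference. In CGR8 the libraries held 62.7, 63.5 and 62.0 CPM at 0 h, then 36.5, 30.8 and 28.7 CPM after 1 h and 20.8, 21.6 and 17.6 CPM after 2 h. They held 27.9, 23.8 and 23.1 CPM after 5 h and 53.2, 52.7 and 54.3 CPM after 48 h. Here the lowest group was 2 h, and every 5 h library lay above every 2 h library. The fold changes were -0.97, -1.67 and -1.38 (SE 0.11, 0.12 and 0.12), all called, and -0.24 (SE 0.11) at 48 h. The 48 h change was not called although all 3 libraries lay below those of 0 h. It was called with voom (-0.24) and with only the groups compared (-0.24).

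At 1 h in CGR8, Pik3r2 was the only member called. Of the 12369 genes tested in both lines, 4 were called lower in both at 1 h, out of 11 lower in NIH/3T3 and 20 in CGR8, and Pik3r2 was 1 of these 4. Ordered by log2 fold change from the lowest, Pik3r2 was number 17 of 13941 genes at 2 h in NIH/3T3 and number 20 of 15933 at 2 h in CGR8. By 5 h it was number 25 in NIH/3T3 and number 554 in CGR8, and by 48 h number 1221 and number 4877. The line difference in the response grew after 2 h: the CGR8 change minus the NIH/3T3 change was -0.03 and 0.30 at 1 and 2 h, which were not called, and 1.06 and 0.54 at 5 and 48 h, which were (SE 0.14 each). The annotation holds an antisense gene, 6330537M06Rik, that shares 45 exon bases with Pik3r2; it reached at most 3.15 CPM, and since the use of strand in counting is not given, its reads cannot be told apart from those of Pik3r2 in that stretch.

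**Figure D2:**
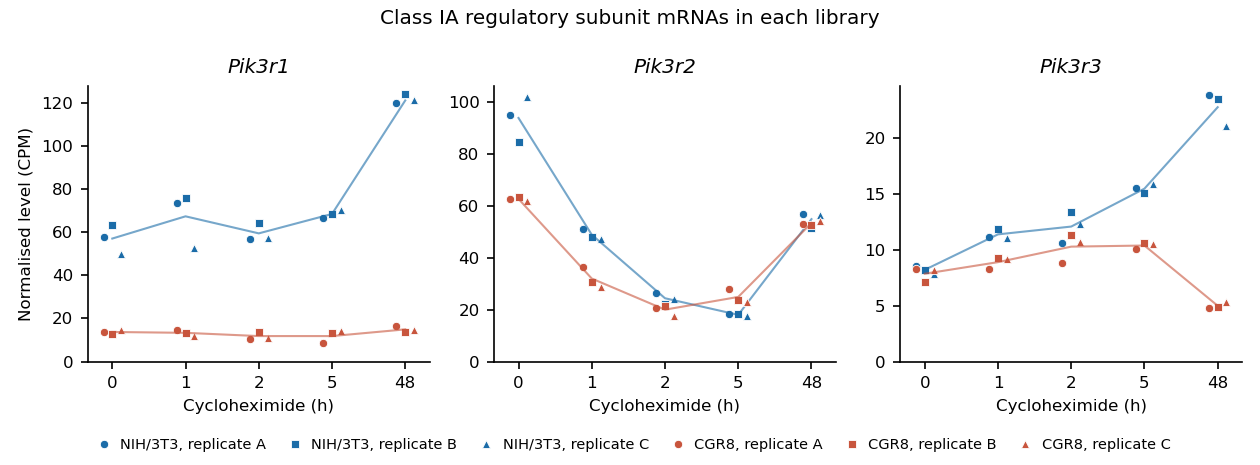
Normalised level in CPM (y axis, from 0) of Pik3r1, Pik3r2 and Pik3r3 in each of the 30 libraries against hours of cycloheximide, with lines through the means of 3 replicates. Pik3r2 drops and rises again in both lines, from 93.9 CPM at 0 h to 54.9 CPM at 48 h in NIH/3T3 and from 62.7 to 53.4 CPM in CGR8. Pik3r1 and Pik3r3 climb to 121 and 22.8 CPM at 48 h in NIH/3T3. In CGR8 Pik3r3 goes from 7.87 to 10.4 CPM at 5 h and to 5.00 CPM at 48 h.

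The promoter of Pik3r2 is shown because it is the member that moved most. Those of Irs1 and Irs2 are shown because they hold the only motif matches in the windows searched. Sequences are from RefSeq on GRCm38.p6 and run from 250 bases before to 50 after the annotated start, 5′ to 3′ on the gene's strand; capitals mark an E-box.
Pik3r2, chr8:70776663-70776962, minus strand: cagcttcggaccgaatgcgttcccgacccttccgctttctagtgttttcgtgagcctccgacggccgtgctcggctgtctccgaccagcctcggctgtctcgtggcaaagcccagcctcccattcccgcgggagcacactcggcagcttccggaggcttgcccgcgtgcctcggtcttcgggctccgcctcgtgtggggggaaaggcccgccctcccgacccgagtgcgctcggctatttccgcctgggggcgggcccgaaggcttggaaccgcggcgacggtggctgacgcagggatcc
Irs1, chr1:82291390-82291689, minus strand: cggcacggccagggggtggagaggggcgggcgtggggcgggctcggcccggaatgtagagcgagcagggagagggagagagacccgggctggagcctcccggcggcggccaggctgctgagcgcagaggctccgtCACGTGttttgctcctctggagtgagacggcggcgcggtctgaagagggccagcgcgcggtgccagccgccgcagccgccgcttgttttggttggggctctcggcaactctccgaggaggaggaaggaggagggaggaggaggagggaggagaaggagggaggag
Irs2, chr8:11008880-11009179, minus strand: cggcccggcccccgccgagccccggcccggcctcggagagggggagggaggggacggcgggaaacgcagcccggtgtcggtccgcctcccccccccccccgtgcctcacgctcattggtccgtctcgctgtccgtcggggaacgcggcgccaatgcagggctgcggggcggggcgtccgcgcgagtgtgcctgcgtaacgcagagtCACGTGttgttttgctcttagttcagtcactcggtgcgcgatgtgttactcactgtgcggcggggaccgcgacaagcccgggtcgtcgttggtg

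For 9 of the 10 members, 14 windows in all were searched, and none of Pik3c3 was. GTAAACA (a FOXO core), TGACGT (a cyclic AMP response element core) and CACGTG (an E-box) were looked for on both strands; the E-box alone was found, so no 2 motifs overlapped. It occurred in the Irs1 window, with its first base 115 before the start, and in the Irs2 window, 44 before the start. Of 32851 windows of 300 bases, 7.15% hold the E-box, 3.65% the FOXO core and 7.51% the response element core. The printed windows are rich in G and C: 69.3% with 36 CG dinucleotides for Pik3r2, 71.3% with 28 for Irs1 and 72% with 41 for Irs2, where the median over all windows was 52.7% with 7. A match is a description of the letters and not evidence of binding.

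Pik3r1, which encodes p85-alpha with its shorter p55 and p50 forms, differed from Pik3r2 in both direction and timing. In NIH/3T3 its libraries held 57.9, 63.2 and 49.9 CPM at 0 h and lay within 52.8 to 75.6 CPM through 1 and 2 h. The 1 h change of 0.26 (SE 0.12) was not called. It was called without replicate C at 1 h (0.39, SE 0.09), the library low in long genes, and with voom (0.38). At 5 h the libraries held 66.4, 68.6 and 70.3 CPM, and at 48 h 120, 124 and 121 CPM, with all libraries of both times above those of 0 h. The changes were 0.30 (SE 0.12) at 5 h and 1.06 (SE 0.12) at 48 h, a 2.09-fold rise, both called. The 5 h call was lost with library size alone, with no filter on low counts, and without replicate A or C at 0 h or B or C at 5 h (0.22 to 0.31). In CGR8 it held 13.9, 12.7 and 14.5 CPM at 0 h and 16.7, 13.5 and 14.4 CPM at 48 h, the groups overlapped at every time, and no change was called. The 48 h change was 0.97 lower in CGR8 on the log2 scale (a difference of -0.97, SE 0.20), which was called.

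Pik3r3, which encodes p55-gamma, had the lowest level per length of the members in NIH/3T3 at 0 h and rose there at each time. Its libraries held 8.57, 8.22 and 7.88 CPM at 0 h, then 11.2, 11.9 and 11.1 CPM after 1 h and 10.6, 13.4 and 12.3 CPM after 2 h. After 5 h they held 15.6, 15.1 and 15.9 CPM, and after 48 h 23.9, 23.5 and 21.1 CPM. No treated library overlapped 0 h, and the changes of 0.50, 0.59, 0.95 and 1.45 (SE 0.10 each) were called; the 1 h call was lost with library size alone, when only the 2 groups compared were fitted, and without replicate A or C at 0 h or A or B at 1 h (0.46 to 0.53). In CGR8 it held 8.31, 7.11 and 8.18 CPM at 0 h, 10.1, 10.6 and 10.5 at 5 h, and 4.78, 4.91 and 5.32 at 48 h. At 2 h it held 8.81, 11.3 and 10.7 CPM, all above 0 h, and the change of 0.37 (SE 0.13) was not called. That change was called with RLE factors, DESeq2, the 5 CPM filter or voom, and without replicate A at 2 h (0.35 to 0.46). The 5 h libraries lay above those of 0 h (0.34, SE 0.13) and the 48 h libraries below (-0.67, SE 0.13). Both were called, the former not with library size alone, with no filter, with only the groups compared, or without replicate B or C at either time (0.24 to 0.37). The CGR8 change was lower than that of NIH/3T3 at 5 h (difference -0.52, SE 0.15) and at 48 h (difference -2.13, SE 0.16); the former call was lost with no filter (-0.56) and without replicate C of NIH/3T3 at 0 or 5 h or replicate A or C of CGR8 at 0 h (-0.48 to -0.50). A gene model on the same strand, Gm49337, shares 1289 exon bases with Pik3r3 and is listed at 0 in all libraries.

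These shifts changed which regulatory subunit mRNA was the most abundant per kb of the longest annotated transcript. In NIH/3T3 at 0 h, Pik3r2 made up 75.5% ± 3.62 (SD, n = 3) of the summed CPM per kb of the 3 class IA regulatory genes, with 75.5%, 71.9% and 79.1% in replicates A, B and C. After 1 and 2 h that share was 57.2% ± 3.51 and 42.0% ± 3.93, and after 5 and 48 h it was 31.1% ± 1.01 and 44.7% ± 1.80. The share of Pik3r1 went from 20.5% ± 3.35 at 0 h to 52.7% ± 0.971 at 5 h and 44.1% ± 1.44 at 48 h, so at 48 h Pik3r1 and Pik3r2 did not differ beyond their spread with this length. With merged exon length they were 40.9% ± 1.35 and 44.5% ± 1.82 at 48 h, with no overlap of libraries. In CGR8 Pik3r2 stayed the largest throughout, at 85.3% ± 1.05, 73.8% ± 1.96, 63.6% ± 3.53, 68.3% ± 4.93 and 84.7% ± 0.855 at 0, 1, 2, 5 and 48 h. The summed regulatory level in NIH/3T3 was 39.3 ± 1.89 CPM per kb at 0 h, 18.2 ± 0.19 at 5 h and 38.8 ± 0.634 at 48 h, so the sum at 48 h lay within the range of 0 h (37.1 to 40.8) with a different makeup. In CGR8 it was 23.2 ± 0.0897 at 0 h, 9.93 ± 0.910 at 2 h and 19.9 ± 0.390 at 48 h, with no overlap between 48 and 0 h. The ratio of the summed regulatory to the summed catalytic level went from 1.65 ± 0.134 at 0 h to 0.972 ± 0.0683 at 2 h and 1.87 ± 0.122 at 48 h in NIH/3T3, and from 1.92 ± 0.0544 to 1.06 ± 0.0432 and 1.79 ± 0.0567 in CGR8. With merged exon length in place of the longest transcript, the NIH/3T3 ratio was 1.37 at 0 h, 0.814 at 2 h and 1.54 at 48 h, so whether it lies above or below 1 at 1 h (1.16 or 0.961) and 5 h (1.07 or 0.897) depends on the length used. In CGR8 the same holds at 1 h (1.13 or 0.965) and 2 h (1.06 or 0.930).

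**Figure D3:**
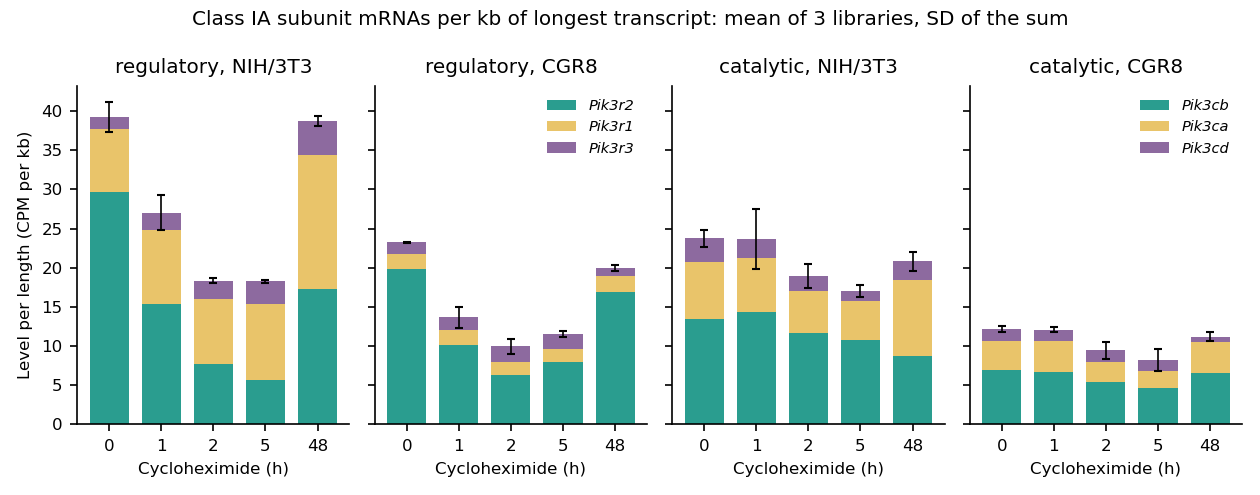
Stacked mean levels in CPM per kb of longest transcript (y axis, from 0) of the regulatory genes Pik3r2, Pik3r1 and Pik3r3 and of the catalytic genes Pik3cb, Pik3ca and Pik3cd at each time, with the SD of the sum over 3 libraries. In NIH/3T3 the regulatory sum returns from 18.2 at 5 h to 38.8 at 48 h with Pik3r1 and Pik3r2 in near equal parts.

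The class IA catalytic subunits did not move together, and none reached the largest change of Pik3r2 in either line. Pik3ca (p110-alpha) held 65.2, 67.4 and 60.3 CPM in NIH/3T3 at 0 h, 44.4, 46.2 and 45.5 at 5 h, and 88.6, 90.0 and 83.2 at 48 h. The 5 h libraries were all below and the 48 h libraries all above those of 0 h, and -0.40, -0.47 and 0.41 after 2, 5 and 48 h (SE 0.12 each) were called, that at 2 h not without replicate A or B at 0 h or C at 2 h (-0.36 to -0.40). In CGR8 Pik3ca held 35.7, 28.1 and 33.8 CPM at 0 h and 14.8, 20.2 and 26.5 at 5 h, a called change of -0.72 (SE 0.18); the lowest of these was replicate A, the library low in long genes, and without it the change was -0.51 (SE 0.15), still called. At 2 h in CGR8 Pik3ca held 21.2, 27.1 and 21.2 CPM, all below 0 h, and the change of -0.51 (SE 0.17) was not called. It was called with RLE factors, DESeq2, no filter or voom, and without replicate B at 0 h or at 2 h (-0.50 to -0.66). At 48 h in CGR8 the groups overlapped (0.09, SE 0.17).

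Pik3cb (p110-beta), the most abundant class IA catalytic subunit mRNA per length in untreated cells of both lines, went down late in NIH/3T3. It held 92.7, 87.5 and 83.1 CPM at 0 h, 66.4, 67.1 and 75.1 at 5 h, and 57.3, 58.3 and 52.5 at 48 h, with changes of -0.30 and -0.67 (SE 0.11 each), both called. The 5 h call was lost without replicate A or B of either time (-0.25 to -0.30). CGR8 libraries instead went from 44.7, 45.5 and 44.8 CPM at 0 h to 24.0, 32.3 and 32.2 at 5 h and back to 44.6, 38.8 and 43.8 at 48 h. The changes there were -0.39 (2 h), -0.66 (5 h) and -0.10 (48 h), with SE 0.12 each, and the first 2 were called. That at 2 h was lost with only the groups compared, without any 0 h library or without replicate C at 2 h (-0.29 to -0.40), and with the replicate letter as a block (-0.39, edgeR). The 48 h difference between lines was 0.56 (SE 0.16), called, though not with library size alone (0.48). As shares of the catalytic sum per kb in NIH/3T3, Pik3cb went from 56.9% ± 0.773 at 0 h to 41.6% ± 0.169 at 48 h and Pik3ca from 30.3% ± 1.02 to 47.1% ± 0.778, so that their order reversed; in CGR8 Pik3cb kept 58.6% ± 1.59 at 48 h against 57.3% ± 2.28 at 0 h.

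Pik3cd (p110-delta), best known from leukocytes, was the least abundant catalytic member per length. In NIH/3T3 it held 15.6, 14.6 and 15 CPM at 0 h, then 12.1, 8.10 and 7.96 CPM after 2 h and 6.23, 6.21 and 6.21 CPM after 5 h. After 48 h it held 11.9, 13.0 and 9.92 CPM. All treated libraries lay below 0 h, and -0.66, -1.24 (SE 0.15 each) and -0.40 (SE 0.14) at 2, 5 and 48 h were called, the last not with library size alone or without replicate A or C of either time (-0.31 to -0.41). In CGR8 it held 7.59, 7.67 and 7.49 CPM at 0 h and 6.41, 6.44 and 7.02 at 5 h, with no call through 5 h, and then 3.17, 3.87 and 3.19 at 48 h (-1.16, SE 0.15, called). The order of the times was thus opposite in the lines: the line difference was 1.08 (SE 0.21) at 5 h and -0.78 (SE 0.21) at 48 h, both called.

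The class III pair differed in NIH/3T3, where Pik3c3 had no called change from 0 h and Pik3r4 had 3, and both were lower at 5 h in CGR8. Pik3c3 (VPS34) held 25.0, 26.7 and 26.0 CPM in NIH/3T3 at 0 h, and the other 12 NIH/3T3 libraries lay between 24.0 and 27.8 CPM, with changes of 0.04, 0.06, 0.01 and -0.04 (SE 0.08 each) that were not called. In CGR8 it held 55.7, 51.2 and 54.1 CPM at 0 h, 46.2, 41.6 and 45.2 at 5 h, and 60.6, 63.0 and 60.1 at 48 h; the 5 h change of -0.33 (SE 0.09) was called. Pik3r4 (VPS15), its pseudokinase partner, held 32.9, 27.0 and 29.9 CPM in NIH/3T3 at 0 h, 19.1, 19.5 and 20.6 at 5 h, and 40.3, 40.1 and 39.8 at 48 h. Its changes there were -0.53 and -0.57 (SE 0.13 each) at 2 and 5 h and 0.39 (SE 0.12) at 48 h, all called and without overlap, the last not called without replicate B at 0 h (0.33). In CGR8 it held 91.1, 81.9 and 90.9 CPM at 0 h, 50.1, 58.4 and 60.8 at 5 h, and 92.7, 91.5 and 94.3 at 48 h, with called changes of -0.42 and -0.69 (SE 0.10 each) at 2 and 5 h. The change at 48 h was 0.07 (SE 0.10) and not called, and the 2 h call was lost with only the groups compared and without replicate A at 0 h or C at 2 h (-0.34 to -0.41). No difference between the lines' responses was called for either gene in the fit described. That of Pik3c3 at 5 h (-0.26, SE 0.11) was called with RLE factors (-0.34), library size alone (-0.45), DESeq2 (-0.34), the 5 CPM filter (-0.36) and voom (-0.34), and without replicate A (-0.47) or B (-0.37) of CGR8 at 5 h. That of Pik3r4 at 48 h (-0.34, SE 0.16) was called with voom (-0.34) and with only the groups compared (-0.33).

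Irs1 was abundant in NIH/3T3 and nearly absent from CGR8. In NIH/3T3 it held 124, 120 and 106 CPM at 0 h, 80.4, 87.3 and 91.5 at 5 h, and 215, 236 and 223 at 48 h. The 48 h libraries were all above those of 0 h, a called change of 0.92 (SE 0.19), or 1.89-fold. The 5 h libraries were all below, by 0.40 on the log2 scale (change -0.40, SE 0.19), and this was not called, though it passed with no low-count filter, with voom weights and when only both groups were fitted. At 1 h replicates A and B held 161 and 164 CPM and replicate C held 76.7, and the change of 0.22 (SE 0.19) became 0.48 (SE 0.09), called, without replicate C. In CGR8 Irs1 held 0.693, 0.679 and 0.655 CPM at 0 h, from 22, 17 and 16 counts, 0.318, 0.203 and 0.429 CPM at 5 h from 7, 4 and 11 counts, and 1.39, 1.08 and 1.73 CPM at 48 h from 38, 29 and 43 counts. The changes of -1.10 (SE 0.40) at 5 h and 1.03 (SE 0.32) at 48 h were called; the former was lost with DESeq2, without any 0 h library and without replicate A or B at 5 h (-0.87 to -1.12), and the latter without any 0 h library and without replicate A or C at 48 h (0.84 to 1.05). The gene model Gm9747 lies antisense to Irs1 over 2822 exon bases and was not analysed here.

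Irs2 rose early in NIH/3T3. Its libraries held 36.9, 33.9 and 37.4 CPM at 0 h, then 62.0, 64.9 and 36.8 CPM after 1 h and 60.4, 53.6 and 47.7 CPM after 2 h. After 5 h they held 34.1, 36.1 and 41.3 CPM, and after 48 h 39.7, 42.2 and 37.7 CPM. All 2 h libraries lay above those of 0 h, a called change of 0.61 (SE 0.16). The 1 h change of 0.62 (SE 0.16) was not called; without replicate C at 1 h, the library low in long genes, it was 0.82 (SE 0.10) and called. With all libraries it was also called with DESeq2 (0.60), with no filter (0.62) and with voom (0.78). In CGR8 Irs2 held 11.1, 10.4 and 10.2 CPM at 0 h and 12.8, 11.6 and 11.0 CPM after 1 h (0.16, SE 0.15, not called). It then held 8.03, 9.34 and 7.23 CPM after 2 h (-0.38, SE 0.15, not called, though -0.50 and called without replicate B of 2 h), 3.82, 5.32 and 5.35 CPM after 5 h, and 12.3, 9.11 and 10.4 at 48 h. The 5 h libraries were all below 0 h (-1.18, SE 0.16, called), where the NIH/3T3 change was 0.08 (SE 0.16, not called), and by 48 h the groups overlapped again (0.00, SE 0.15). The CGR8 change minus the NIH/3T3 change was -0.94 (SE 0.23) at 2 h and -1.17 (SE 0.23) at 5 h, both called, that at 2 h not without 1 of 5 libraries (replicate A or B of NIH/3T3 at 0 h, A of NIH/3T3 at 2 h, A of CGR8 at 0 h or C of CGR8 at 2 h, -0.85 to -0.95). Irs2 has an antisense transcript, 9530052E02Rik, over 162 exon bases, which reached at most 0.0427 CPM.

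**Figure D4:**
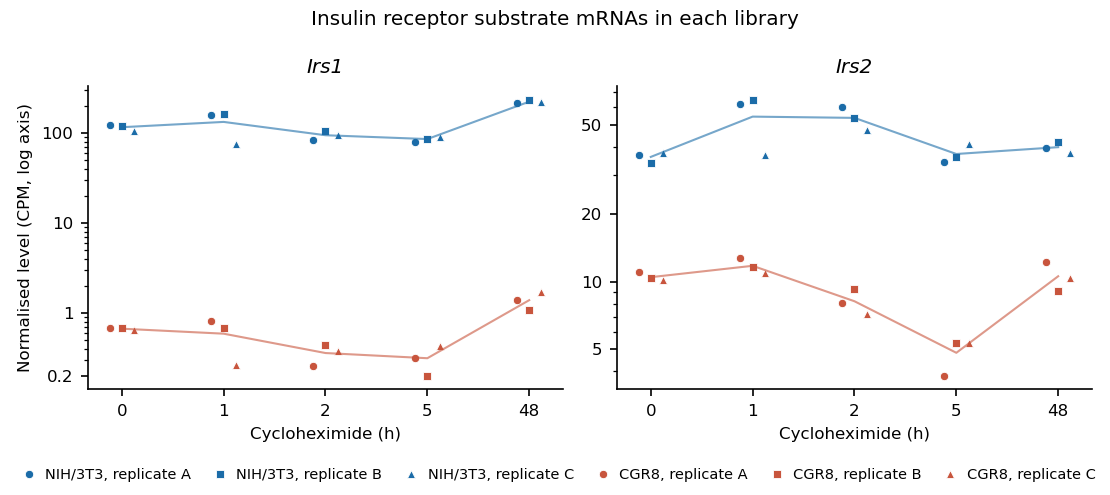
Normalised level in CPM (y axis, logarithmic) of Irs1 and Irs2 in each library against hours of cycloheximide, with lines through the means. Irs1 lies between 76.7 and 236 CPM in NIH/3T3 and between 0.203 and 1.73 CPM in CGR8, and NIH/3T3 1 h replicate C sits below its 2 replicates for both genes.

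Before the drug, 9 of the 10 members differed between the lines. In CGR8 2 were called higher and 7 lower at 0 h, where 42.8% and 36.3% of the 17549 genes tested over both lines were. Irs1 was 171-fold lower in CGR8 (log2 -7.42, SE 0.27), Pik3r1 4.16-fold lower (-2.06, SE 0.15) and Irs2 3.42-fold lower (-1.77, SE 0.16). Pik3r4 and Pik3c3 were higher in CGR8 by 1.56 (SE 0.12) and 1.05 (SE 0.08) on the log2 scale, and Pik3r3 was not called (-0.06, SE 0.11). The median over all genes in this comparison was 0.15. Per kb, the order at 0 h in NIH/3T3 was Pik3r2 (29.7 ± 2.80 CPM per kb, SD, n = 3), Pik3cb (13.5 ± 0.740), Irs1 (12.8 ± 1.03), Pik3r1 (8.02 ± 0.937), Pik3c3 (7.96 ± 0.267), Pik3ca (7.21 ± 0.406), Pik3r4 (6.07 ± 0.601), Irs2 (5.70 ± 0.294), Pik3cd (3.06 ± 0.0997) and Pik3r3 (1.56 ± 0.0657). Pik3cb and Irs1, Pik3r1 and Pik3c3, and Pik3r4 and Irs2 were neighbours in that order that did not differ beyond their spread. In CGR8 it was Pik3r2 (19.8 ± 0.237), Pik3r4 (17.8 ± 1.07), Pik3c3 (16.5 ± 0.708), Pik3cb (6.95 ± 0.0631), Pik3ca (3.65 ± 0.443), Pik3r1 (1.92 ± 0.128), Irs2 (1.67 ± 0.0717), Pik3cd (1.54 ± 0.0182), Pik3r3 (1.5 ± 0.126) and Irs1 (0.0739 ± 0.00211), where Pik3r4 and Pik3c3, and Pik3cd and Pik3r3, did not differ beyond their spread. The order below Pik3r2 rests on the length chosen. With merged exon length in NIH/3T3, Irs1 (12.8), Pik3cb (12.2) and Pik3ca (7.08) came next and Pik3r1 (5.66) was number 7; in CGR8 Pik3c3 (12.0) lay above Pik3r4 (9.10) with no overlap.

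The test of the difference between the lines' responses was run on 17549 genes. At 1 h, edgeR called 0 members, of which 0 had an unadjusted p under 0.05, DESeq2 also called 0 and voom called 2; 0.0171% of all genes were called higher and 0.142% lower in CGR8 relative to NIH/3T3. At 2 h, 1 member (Irs2) was lower, against 0.866% higher and 1.16% lower of all genes. At 5 h, 2 were higher (Pik3r2 and Pik3cd) and 2 lower (Pik3r3 and Irs2), against 8.18% and 5.09%. At 48 h, 2 were higher (Pik3r2 and Pik3cb) and 3 lower (Pik3r1, Pik3r3 and Pik3cd), against 9.78% and 12.1%. The median over all genes was 0.13 in the 5 h comparison, and scaling by library size alone moved it by -0.19.

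Pik3r1, Pik3r2, Pik3r3, Pik3cd, Irs1 and Irs2 each changed at least 2-fold against 0 h somewhere, and the genes with the most similar profile were sought for them. Likeness was Pearson's r over the 10 group means of log2 CPM, centred within each line, among 8030 genes whose mean reached 5 CPM in each line; groups of a line share their libraries' scaling, and no p is given. Closest to Pik3r2 were Ccdc92 (r = 0.992), Atmin (0.971) and Clstn1 (0.963). Their profiles were broadly alike in shape but smaller in size: at 2 h the log2 change was -0.70 in NIH/3T3 and -0.64 in CGR8 for Ccdc92, and -1.01 and -0.79 for Atmin. They did not share the rise of Pik3r2 from 2 to 5 h in CGR8 (-1.67 to -1.38). Over those times in CGR8 Ccdc92 went from -0.64 to -0.70, Atmin from -0.79 to -0.81 and Clstn1 from -0.47 to -0.65. Closest to Irs1 were Tead1 (0.984), Svil (0.981) and Ptpn14 (0.981), and closest to Pik3cd were Slc25a10 (0.974), Vangl1 (0.974) and Capn1 (0.973). Irs1 passed the 2-fold cut only in CGR8 (-1.10 at 5 h and 1.03 at 48 h). Its CGR8 libraries held 0.203 to 1.73 CPM, below the 5 CPM asked of the other genes, so that part of its profile is near the counting floor. For Pik3r1 they were Rab6a (0.969), Ap1s2 (0.967) and Ddx58 (0.964), for Pik3r3 Rab18 (0.962), Serpinb1a (0.958) and Rnf135 (0.956), and for Irs2 Epc2 (0.962), Slc25a30 (0.939) and Rbm15 (0.926). Among the members themselves, Pik3ca and Pik3r4 had the most similar profiles (r = 0.98) and Pik3r3 and Pik3cb the most opposed (-0.78).

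The rest of the pathway was taken from 7 lists with 84 genes, of which 75 were tested in each line. In NIH/3T3, 7 were called higher and 27 lower at 2 h, 9 and 32 at 5 h, and 37 and 18 at 48 h; in CGR8 the counts were 4 and 23, 5 and 48, and 14 and 16. Over all genes the shares called higher and lower at these times were 16.1% and 18.9%, 24.0% and 27.1%, and 26.7% and 25.6% in NIH/3T3, and 8.97% and 11.0%, 24.9% and 27.2%, and 12.2% and 15.6% in CGR8. The counts of each list below are to be read beside the same shares. The list's median log2 change was -0.25 at 5 h and 0.28 at 48 h in NIH/3T3 and -0.48 and 0.02 in CGR8, where the medians over all genes were between -0.01 and 0. At 1 h, edgeR called 2 genes in NIH/3T3, both higher. In CGR8 at 1 h edgeR called 0, with 8 at an unadjusted p under 0.05, DESeq2 called 1 and voom 6. Without NIH/3T3 2 h replicate C the NIH/3T3 2 h total of 34 was 20, and without CGR8 2 h replicate C the CGR8 2 h total of 27 was 7; the CGR8 48 h total of 30 was 19 without replicate C at 48 h. In both lines 3 genes were higher and 16 lower at 2 h, 4 higher and 22 lower at 5 h, and 10 higher and 6 lower at 48 h. Of the 12369 genes tested in both lines, 713 were higher and 1062 lower at 2 h, 1797 and 2282 at 5 h, and 670 and 816 at 48 h.

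Receptor mRNAs had the list medians furthest below 0 at 5 h in CGR8 and furthest above 0 at 48 h in NIH/3T3, among the lists with over 2 genes tested. Of 9 tested, all with transcripts of 5 kb or more, 4 fell at 5 h in NIH/3T3 (median -0.40) and 7 in CGR8 (median -0.86), and at 48 h 8 rose and 1 fell in NIH/3T3 (median 0.67) while 2 fell in CGR8 (median 0.06). Igf1r, the IGF1 receptor, had means of 86.0, 47.6 and 139 CPM at 0, 5 and 48 h in NIH/3T3 (edgeR log2 change -0.82, adjusted p = 0.000381, and 0.67, adjusted p = 0.00167). In CGR8 Igf1r had 24.0, 10.4 and 25.1 CPM (-1.26, edgeR adjusted p = 0.000142, at 5 h). Insr, the insulin receptor, rose by 0.60 at 48 h in NIH/3T3 (edgeR adjusted p = 0.00729) and fell by 0.86 at 5 h in CGR8 (edgeR adjusted p = 0.0102). Fgfr1 (-0.32 and -0.83 in NIH/3T3 and CGR8) and Met (-0.57 and -1.48) fell in both lines at 5 h, and Met, the HGF receptor, was still lower in both at 48 h (-0.81 and -0.89). Erbb2 and Erbb3 fell in both at 2 h, with changes of -0.55 and -0.87 in NIH/3T3 and -0.60 and -0.64 in CGR8.

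Of 12 adaptor genes tested in each line, 1 rose and 5 fell at 5 h in NIH/3T3 (median -0.15), and 8 fell in CGR8 (median -0.45). Sh2b2 (-1.13 and -1.84), Sh2b1 (-0.61 and -0.48) and Shc1 (-0.25 and -0.35), adaptors of receptor tyrosine kinases, fell in both lines. Gab2 fell by 0.77 at 5 h in NIH/3T3 and Frs2 by 0.93 in CGR8, the changes of largest size in this list among genes at 10 CPM or more. Gab1, a docking protein that binds PI3K, rose at 48 h in both lines (0.73 and 0.37). Only 2 of 8 other PI3K and IRS genes were tested: Pik3c2a, which rose by 0.86 at 5 h in NIH/3T3 (edgeR adjusted p = 0.00398), and Pik3c2b, which fell at 2 h and rose at 48 h in both lines (-1.42 and 0.71 in NIH/3T3, -0.72 and 0.57 in CGR8). Pik3cg, Pik3r5, Pik3r6, Pik3c2g, Irs3 and Irs4 had group means of at most 0.405 CPM in both lines.

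Among lipid phosphatases and PI3K inhibitors, listed with the protein phosphatases Phlpp1 and Phlpp2, 1 of 10 rose and 4 fell at 5 h in NIH/3T3 (median -0.33). In CGR8, 6 of 9 fell at 5 h (median -0.37). The 5-phosphatases Inppl1 (-0.49 and -0.36), Inpp5e (-0.37 and -0.37) and Inpp5d (-0.96 and -0.42) fell in both lines at 5 h, and Inpp5d rose at 48 h (0.67 and 0.69). Inpp4a and Phlpp1 fell in both at 2 h (-0.60 and -0.42 in NIH/3T3, -0.76 and -0.56 in CGR8), and Phlpp2 fell by 0.90 at 5 h in CGR8. Pik3ip1, an inhibitor of p110, was low at 0.78 to 2.6 CPM in every group, and of its changes against 0 h that in CGR8 at 2 h was called (0.84, edgeR adjusted p = 0.0225).

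Of the genes from AKT to the effectors, 4 of 24 rose and 10 fell at 5 h in NIH/3T3 (median -0.23) and 3 of 25 rose and 16 fell in CGR8 (median -0.53). Akt1 fell by 0.78 and 0.84 at 5 h and stayed lower at 48 h (-0.66 and -0.79), with means of 462, 262 and 298 CPM at 0, 5 and 48 h in NIH/3T3. Akt2 (-0.29 and -0.51), Akt1s1 (-0.63 and -1.03), Mapkap1 (-0.55 and -0.47), Tsc2 (-0.84 and -0.88), Gsk3a (-0.58 and -0.62) and Foxo6 (-0.90 and -1.97) fell at 5 h in NIH/3T3 and in CGR8. Mtor and Gsk3b fell in both at 2 h (-0.41 and -0.44 in NIH/3T3, -0.48 and -0.60 in CGR8). Rheb and Mlst8 went the other way at 5 h: Rheb, the GTPase that activates mTORC1, rose by 0.52 and 0.41, and Mlst8, a subunit of mTOR complexes, by 0.30 and 0.25. Foxo4 fell to 7.05 from 19.3 CPM at 5 h in NIH/3T3 (-1.41, edgeR adjusted p = 4.66e-08) and by 0.24 in CGR8, a difference between lines of 1.26 (edgeR adjusted p = 3.90e-08). At 48 h 3 of the 4 FOXO genes rose in both lines: Foxo1 by 1.36 and 0.58, Foxo3 by 1.38 and 0.64, and Foxo4 by 0.28 and 0.39, while Foxo6 rose in NIH/3T3 (0.75) and fell in CGR8 (-0.80). Tsc1 rose too (0.71 and 0.63), and Eif4ebp1, a translation repressor under mTORC1, fell (-1.36 in NIH/3T3 and 2.01-fold lower in CGR8).

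The 6 partners of VPS34 had 2 genes lower at 5 h in NIH/3T3 (median -0.24) and 4 in CGR8 (median -0.46). Uvrag, of the endosomal complex, fell by 0.23 and 0.79, and Becn1 fell by 0.24 in NIH/3T3. Rubcn, which restrains the complex, fell in both lines at 2 h (-0.35 and -0.43) and rose at 48 h (0.42 and 0.61), while Atg14, of the autophagy complex, fell at 48 h (-0.46 and -0.64). Of 13 genes reported elsewhere as FOXO targets, 2 rose and 7 fell at 5 h in each line (median -0.40 and -0.30). Over all genes 24.0% were higher and 27.1% lower at 5 h in NIH/3T3, and 24.9% and 27.2% in CGR8. Gadd45a rose by 0.76 and 0.78 and Cdkn1b by 0.49 and 0.41, whereas Fbxo32 (-1.14 and -1.79), Bcl2l11 (-0.60 and -0.91), Bcl6 (-0.56 and -1.34) and Sod2 (-0.28 and -0.32) fell. At 48 h Sesn3 rose (1.46 and 1.17), and Cat (-0.56 and -1.08) and Bcl2l11 (-0.55 and -0.65) fell in both lines. The list's genes thus moved in both directions at either time.

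**Figure D5:**
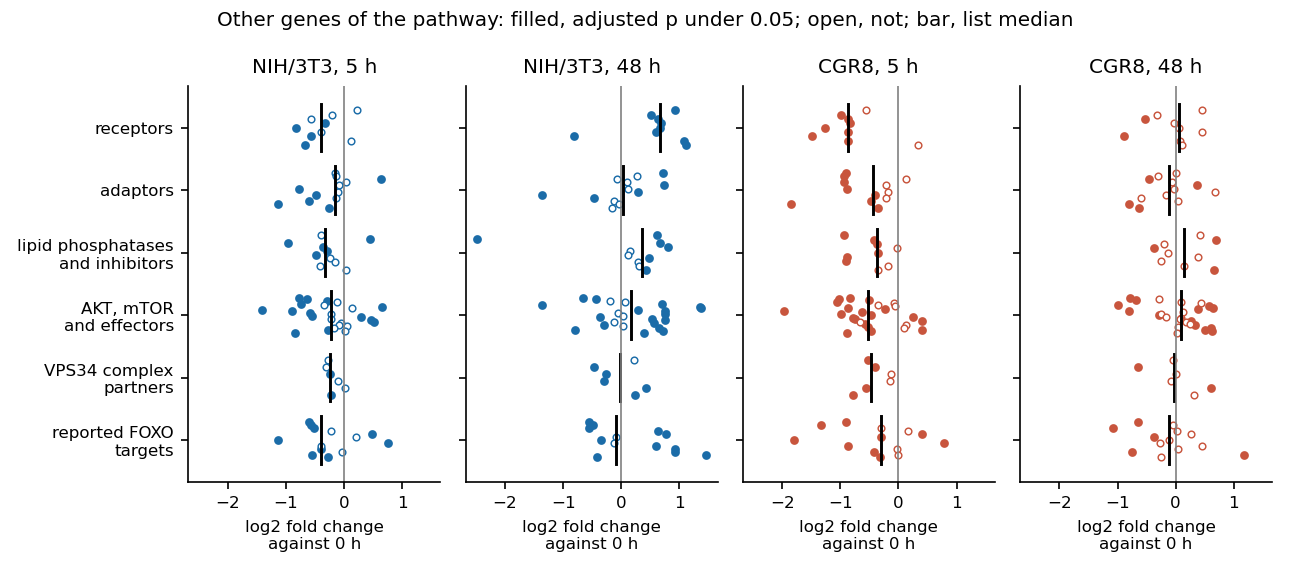
The log2 fold change against 0 h (x axis) of each tested gene in 6 lists of other pathway genes, at 5 and 48 h in NIH/3T3 and CGR8; filled points passed an adjusted p under 0.05 and black bars are list medians. The receptor median lies at -0.40 at 5 h and 0.67 at 48 h in NIH/3T3 and at -0.86 and 0.06 in CGR8.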

How the data were processed

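The deposited table holds raw counts of reads for every gene, with a column for each of the 30 libraries; per the submitters' processing notes STAR, DESeq2 and GRCm39 were used, with no versions, and the counting tool and its use of strand are not given in the sources used here. Of 57186 identifiers, 51880 (90.7%) matched a symbol with the version suffix removed. Counts were fitted per line (15 libraries, one mean per time) with edgeR 4.0.16 in R 4.3.3: TMM factors (0.878 to 1.07), genes kept by filterByExpr (minimum count 10, total 15), quasi-likelihood F test, Benjamini-Hochberg adjustment over all genes tested, calls at 0.05. Line differences came from a fit of all 30 libraries, as the CGR8 change minus the NIH/3T3 change. Standard errors are the size of the log2 change divided by the square root of F. CPM used TMM-scaled totals, with GENCODE M21 lengths for values per kb. Between any 2 replicates of a group the counts differed by more than sampling noise (lowest chi-square per degree of freedom 1.75), so all were kept as separate. Libraries held 18216993 to 30503109 counts, and genes near 1 CPM carry the largest counting error. Scripts were tested on simulated data. Alternatives were RLE factors, library size alone, DESeq2 1.42.0, no filter, a mean of at least 5 CPM, voom with sample weights (limma 3.58.1), a replicate block, fits of only the groups compared, and leaving out each library.

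The members and the gene lists were chosen with earlier results of these data known. All 10 members are named; of other genes, those called in the same direction in both lines, the change of largest size at 5 h per list and line at 10 CPM or more, and a few named in advance (Insr, Igf1r, Pik3ip1, Foxo1, Foxo3 and the other PI3K and IRS genes). Promoters came from RefSeq on GRCm38.p6, a build other than that of the counts, and no window of Pik3c3 was searched. Coordinates of genes are not given. Some genes that the rule selects are not reported here.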

Additional observations from a re-analysis of the deposited data

Results flagged for a closer look

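For 6 members the size of the response differed between the lines in at least 1 comparison, by the test of the difference itself (edgeR's quasi-likelihood test over 17549 genes); each value is the log2 change in CGR8 minus that in NIH/3T3. At 2 h this was so for Irs2 (-0.94). At 5 h it held for Pik3r2 (1.06), Pik3r3 (-0.52), Pik3cd (1.08) and Irs2 (-1.17). At 48 h it held for Pik3r1 (-0.97), Pik3r2 (0.54), Pik3r3 (-2.13), Pik3cb (0.56) and Pik3cd (-0.78). The members were chosen with these results known, so the list is a description. Pik3r3 is the member whose called changes at 48 h have opposite signs in the lines, 1.45 in NIH/3T3 and -0.67 in CGR8. Pik3cd was lowest at 5 h in NIH/3T3 and at 48 h in CGR8.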

How the results depend on the processing

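Of 2335 values of members under other settings, 2224 kept their side of the threshold, 63 lost the call and 48 gained it. Among values called in either fit, 0 reversed direction. Values called in neither fit could change sign, as did Pik3ca at NIH/3T3 1 h (-0.03, range -0.12 to 0.12). Counts of members called that moved by more than 1.5 times were those at CGR8 2 h (3; 5 with RLE factors, DESeq2 or voom, 1 with only the groups compared, 1 to 5 leaving out a library) and NIH/3T3 1 h (2; 1 with library size alone or only the groups compared, 6 with voom, 1 to 5 leaving out a library, 5 without replicate C at 1 h). Line differences of members moved from 0 to 2 at 1 h and from 1 to 2 at 2 h with voom, and to 0 to 1 at 2 h leaving out a library. Of other pathway genes, NIH/3T3 1 h (2) gave 4 with DESeq2 or no filter, 22 with voom, 1 with only the groups compared and 2 to 5 leaving out a library. CGR8 1 h (0) gave 1 with DESeq2 and 6 with voom, and CGR8 2 h (27) gave 6 with only the groups compared and 7 to 31 leaving out a library. NIH/3T3 2 h (34) gave 20 to 34 and CGR8 48 h (30) gave 19 to 27 leaving out a library. Line differences of pathway genes at 1 h (1) gave 2 with voom and 0 with only the groups compared, or 0 to 1 leaving out a library. At 2 h (7) they gave 4 with only the groups compared, at 5 h (17) 31 with voom and 9 to 23 leaving out a library, and at 48 h (26) 48 with voom. The cause was not tested.

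Same-letter replicates deviated together in part: 14 of 24 pairs had r over 0.1 (range -0.783 to 0.717), and 1 of 8 comparisons, NIH/3T3 1 h, had this for all pairs, so the letters were not taken as pairs. With the replicate block, no count of members moved by more than 1.5 times; Pik3cb at CGR8 2 h (-0.39) had an edgeR adjusted p of 0.0519. In 14 of 24 cases a library correlated best with its own letter. Scaling by library size alone moved the median over all genes by -0.10 at CGR8 5 h and by -0.19 in the 5 h line difference. For Irs1 in CGR8, 4 to 43 counts per library limit what can be seen.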
